A study of Mus musculus with 6 samples.

Results

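Pancreatic islets of 2 mice from a second litter of the P07Rik colony were compared with islets of 4 mice from the first litter. Litter 2 was represented by the libraries WT2931 and KO2938, and litter 1 by WT2772, WT2777, KO2775 and KO2776, so that the 2 members were 2 of the 6 libraries of the series. They were chosen by the littermate group in the sample labels. Each library came from 1 male mouse of 12 weeks on a C57BL/6N background. WT mice were P07Rik+/+, and flox/flox mice (P0Rik7flox/flox mutant in the labels) were homozygous for an allele made to end transcription of the long non-coding RNA A830019P07Rik early. All mice came from crosses of heterozygous parents. The mice of all groups had fasted overnight, and their isolated islets recovered for 2 h in 3 mM glucose before RNA was taken. Litter 1 held 2 WT and 2 flox/flox mice and litter 2 held 1 of each, so that the litter comparison could be made within each genotype. The question was which islet transcripts differed between litters in a study whose genotypes were matched by litter. The labels give no dates of islet isolation or library preparation. A difference between litters therefore cannot be told apart from one between isolations or library preparations.

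Islets are small clusters of endocrine cells in the pancreas, in which beta cells release insulin and alpha cells release glucagon. Islet cells respond to interferons, the signals of antiviral defence, by making chemokines, antigen-processing proteins and nucleic acid sensors. Interferons act in part through the IRF transcription factors. Isolation and culture also expose islets to stress, to which cells respond with immediate early genes, heat shock chaperones and chaperones of the endoplasmic reticulum (ER).

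The libraries were strand-specific, and each read was assigned to genes on 1 strand only. The totals ranged from 611181 to 800255 counts. Ins2, whose mRNA is among the most abundant in beta cells, received only 96 to 205 counts per library. Genes whose exons overlapped exons of a gene on the opposite strand held 79.8 to 86.6% of the counts. For each gene that differed, the gene on the opposite strand is therefore given as the candidate source transcript. Which strand the reads came from was not tested. Where a gene faces several genes, which of them was the source was not tested either. AY036118 is a non-coding RNA gene on chromosome 17 that lies in a ribosomal RNA repeat. It took 13.6 to 22.1% of the counts in 5 libraries and 41.0% in KO2938, so that KO2938 stood apart from the other libraries. No pair of libraries agreed within counting noise (lowest chi-square per degree of freedom 1.59 over 15 pairs).

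Litter was compared with edgeR's quasi-likelihood test with genotype in the model, over the 6037 genes with enough counts. At an adjusted p-value under 0.05, 635 genes (10.5%) differed, of which 351 (5.81%) were higher and 284 (4.7%) lower in litter 2. Without KO2938 the count was 423, and without WT2931 it was 254. Both litter 2 libraries lay above all 4 litter 1 libraries for 980 genes (16.2%) and below all 4 for 948 genes (15.7%), in CPM (counts scaled to a common library size). Lower genes included those opposite to interferon-response and stress-response genes. Of the higher genes, 34.8% lay inside the span of a gene on the opposite strand without sharing exons with it, a position held by 18.5% of all tested genes. Library sizes alone, without further scaling, gave 55 higher and 221 lower genes, with the median of all genes moved to -0.19 on the log2 scale.

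**Figure D1:**
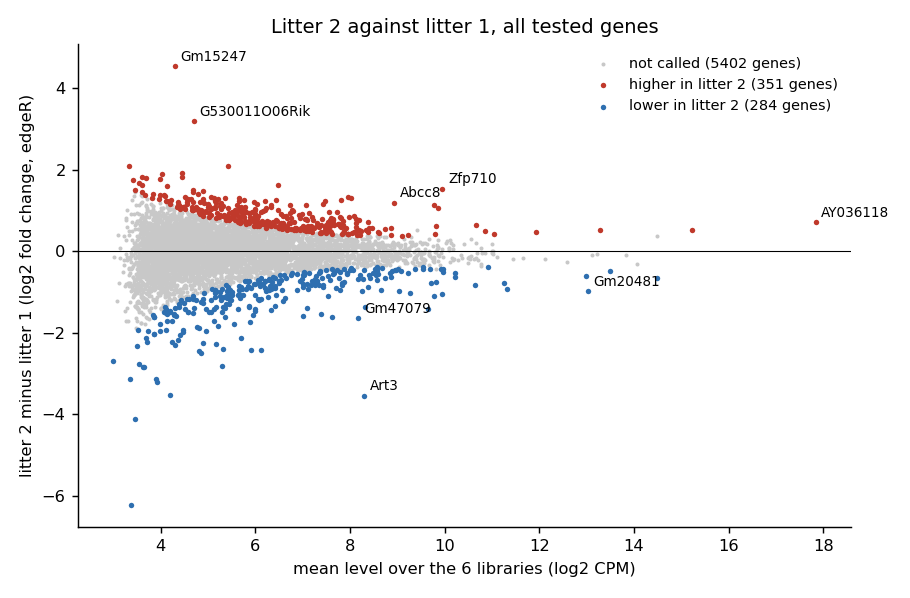
Each point is 1 of the 6037 tested genes, with its mean level over the 6 libraries (log2 CPM) on the horizontal axis and the log2 fold change of litter 2 over litter 1 on the vertical axis. The 351 genes called higher are red and the 284 called lower are blue, and Art3 and Gm15247 stand farthest from 0 among the labelled genes.

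The smallest p-value belonged to Art3, an ADP-ribosyltransferase gene on the plus strand of chromosome 5 (92331827 to 92414628, GRCm38). Art3 has 133 bp of exon opposite exons of Cxcl10, which encodes a chemokine that interferons induce and that attracts T cells. In litter 1 its counts were 519 and 305 in WT and 290 and 170 in flox/flox islets. In litter 2 they were 24 in WT and 27 in flox/flox islets. Every litter 1 library thus lay well above both litter 2 libraries. Some separation was required of Art3 and the other genes named by p-value, which were chosen for not overlapping between litters. The level was 11.7-fold lower in litter 2 (log2 fold change -3.55 ± 0.23 (SE), adjusted p = 7.95e-20). Cxcl10 itself is not among the genes of the table.

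In what follows, counts of 6 libraries are given in the order WT2772, WT2777, KO2775 and KO2776 for litter 1, then WT2931 and KO2938 for litter 2. Gm17334 lies opposite Irf1, which encodes an interferon-induced transcription factor, with an overlap of 135 bp. Its counts were 836, 655, 828 and 605 in litter 1 and 434 and 235 in litter 2, a 2.14-fold lower level (log2 fold change -1.10 ± 0.15, adjusted p = 5.83e-08). The counts assigned to Irf1 itself were 13, 19, 17 and 11 against 15 and 11, and they overlapped between litters.

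Adhesion and defence genes followed among the opposite genes. Gm47079 lies opposite Icam4 (1110 bp), Icam1 (511 bp) and Icam5 (116 bp), which encode adhesion molecules that leukocytes bind. It had 305, 323, 288 and 139 counts in litter 1 and 75 and 81 in litter 2, a 3.15-fold lower level. KO2776 was the lowest of the litter 1 libraries and still lay above litter 2. Gm16548 lies opposite Selp, the gene of the adhesion molecule P-selectin (438 bp), and also opposite F5 (262 bp). It had 56, 104, 44 and 61 counts against 8 and 15. A second gene opposite Selp, Gm16587, was lower as well (log2 fold change -2.81 ± 0.41, adjusted p = 7.53e-07). Slfn5os lies opposite the interferon-inducible gene Slfn5 (559 bp) and also opposite Unc45b (151 bp). It had 113, 123, 132 and 91 counts against 41 and 31, with the litters well apart. A930037H05Rik, opposite Rnf213, a large ubiquitin ligase gene, had 1042, 861, 942 and 491 counts against 403 and 348 (log2 fold change -1.06 ± 0.15, adjusted p = 2.04e-07). The counts of Rnf213 itself, 29, 29, 35 and 32 against 45 and 20, overlapped between litters.

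**Figure D2:**
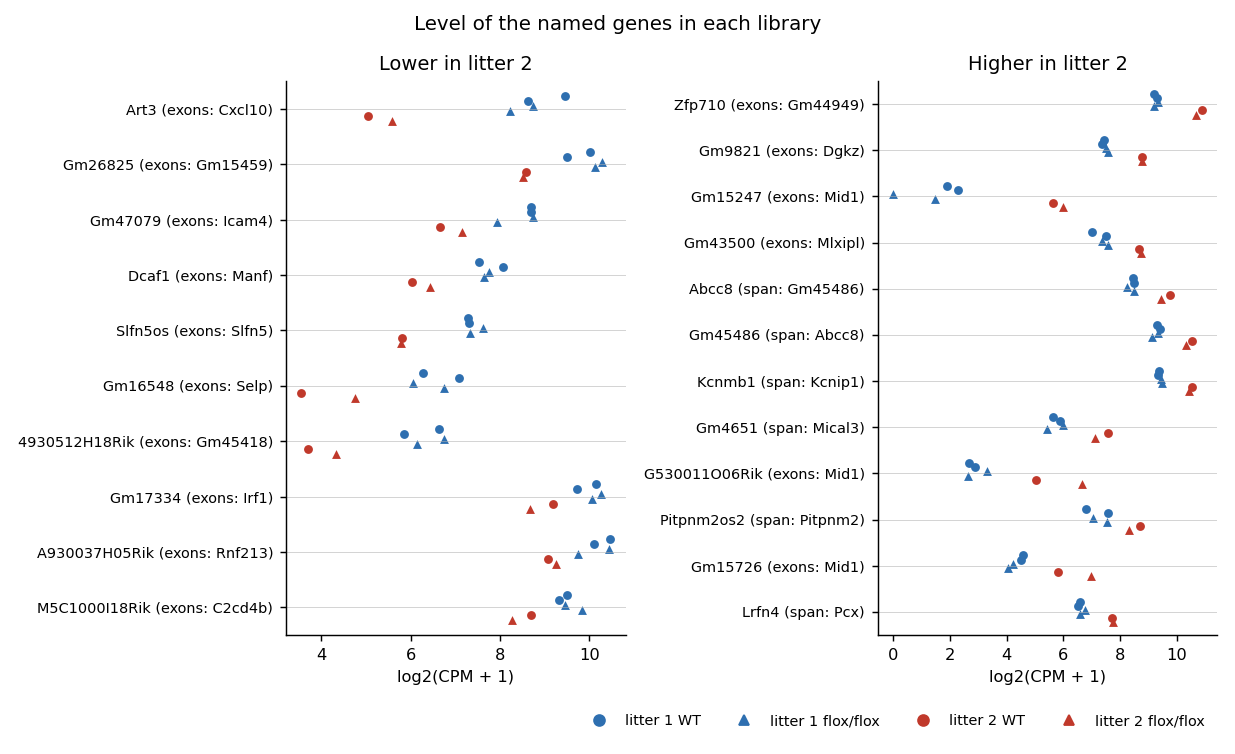
Level of 10 genes lower (left) and 12 genes higher (right) in litter 2, in log2(CPM + 1), with 1 symbol per library, in blue for litter 1 and red for litter 2, circles for WT and triangles for flox/flox. The opposite-strand gene is given in parentheses, by exon overlap or by span, and the red symbols lie apart from the blue ones in every row, as the choice of these genes requires.

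The short list of 10 interferon-response genes had 3 tested genes opposite its exons, and all 3 were lower, beside 4.7% of all tested genes. They were Gm17334, Phrf1 opposite Irf7, an interferon-inducible transcription factor (log2 fold change -2.51 ± 0.45, adjusted p = 3.86e-05), and Gm44148 opposite Usp18, which limits interferon signalling (-1.10 ± 0.18, adjusted p = 7.36e-06). The list's own genes gave another picture. Of the 4 tested on their own strand 0 were called, with a median log2 fold change of 0.04. Usp18 itself had 25, 27, 35 and 24 counts against 46 and 28, and Irf7 41, 31, 33 and 24 against 40 and 32, and both overlapped between litters.

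A longer list of 89 interferon-inducible genes was set up after these values were seen, so its counts are a description. Of the 23 tested genes opposite its exons, 20 were called lower and 0 higher, where 4.7% of all tested genes were called lower. The 20 include Gm17334, Phrf1 and Gm44148 of the short list, and Art3 and Gm47079, which the inflammatory list below also counts. Art3, Gm47079, Slfn5os, A930037H05Rik and Gm17334 were also named above by their small p-values. The lists are therefore not separate observations. Their median log2 fold change was -1.10, beside -0.01 for all tested genes, and 21 of the 23 had both litter 2 libraries below all litter 1 libraries. Over the 26 genes in the table, the summed level was 5654 to 7849 CPM in litter 1 and 3480 to 3529 CPM in litter 2. The count of lower genes was 16 without KO2938, 14 without WT2931 and 13 with DESeq2, each with 0 higher. The exceptions were Emc9 opposite Psme1, Chrnb2 opposite Adar and 9330175E14Rik opposite Nlrc5, which were not called, with log2 fold changes of -0.12, -0.25 and -0.94.

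The members of this longer list covered several steps of the interferon response. For antigen presentation, Gm11131 opposite H2-Q4, a class I histocompatibility gene, had 438, 344, 320 and 244 counts against 179 and 149. Gm20496 lies opposite Psmb8, an immunoproteasome subunit gene, and Tap2, a peptide transporter gene, with 223, 190, 208 and 137 against 123 and 91. Gm19412 opposite Tapbp, which encodes the tapasin that loads peptides onto class I molecules, had 582, 462, 483 and 332 against 322 and 282. The log2 fold changes of these 3 genes were -0.96, -0.76 and -0.54, and no litter 2 library reached the lowest litter 1 library. For nucleic acid sensing and antiviral defence, Gm26637 opposite Eif2ak2, the kinase PKR that senses double-stranded RNA, fell by 1.41 ± 0.31 on the log2 scale. Dhx58os opposite Dhx58, which encodes an RNA sensor of the RIG-I family, fell by 1.37 ± 0.36, but its 55, 28, 49 and 10 counts in litter 1 overlapped the 14 and 12 of litter 2 in CPM. Among the guanylate-binding and related GTPases, Mir6381 opposite Gbp2 had 34, 21, 36 and 15 counts against 2 and 7. Gm43109 opposite Vcam1, the adhesion molecule of activated endothelium, had 19, 36, 15 and 7 counts against 2 and 1.

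Some genes of the longer list were counted on their own strand, and these moved in both directions. For comparison, 4.7% of all tested genes were lower and 5.81% higher. Of 29 tested, 4 were lower and 1 was higher (2 and 1 without KO2938). Cmpk2, a mitochondrial nucleotide kinase gene that interferons induce, had 10, 12, 19 and 8 counts against 2 and 1 (log2 fold change -2.85 ± 0.70, adjusted p = 0.00332). The other lower genes, Parp9, Tap2 and Psmb9, each also lie opposite another gene. The higher gene was Ifi35, with 13, 18, 6 and 9 counts against 37 and 15 (1.21 ± 0.34, adjusted p = 0.0116). On the other strand of the same locus, Gm11626 was lower, with 135, 118, 131 and 89 counts against 80 and 48 (-0.83 ± 0.17, adjusted p = 0.000506).

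Markers of immune cells were counted on their own strand. Genes that every cell uses also had few counts there (Hprt 0 to 2, Polr2a 2 to 5 and Rplp0 2 to 8), so a low count does not show that a marker is absent. Of 12 myeloid markers, 8 were not among the genes of the table, and the summed level of the other 4 was 173 to 213 CPM in litter 1 and 190 to 214 CPM in litter 2. Most of it was Csf1r, at 109 to 166 counts per library and not called, and it shares 873 bp of exon with Hmgxb3 on the opposite strand. Of 8 lymphoid markers, the 3 in the table summed to at most 13 counts, and of 8 endothelial markers, the 5 in the table summed to at most 24. In whole islets, fewer cells of a type and less RNA per cell cannot be told apart.

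Promoters of the opposite genes are shown because interferon and heat shock factors bind known short motifs. The windows of 80 bases were read from RefSeq (GRCm38.p6), 5′ to 3′ on the strand of the gene, with the motif match in capitals. The first 4 hold the interferon-stimulated response element, searched as GAAA, any 2 bases and GAAA again on both strands. The next 2 hold the gamma-activated site, searched as TTCNNNGAA. These windows were picked from more matches in genes opposite lower genes. The response element was also matched at Coro2a, Gna13, Serpinb6a and Slfn5. The gamma-activated site was matched at 16 genes, which include Rpl35, Ube2d3 and Gorasp2.
Cxcl10 (chr5:92349058-92349137, minus): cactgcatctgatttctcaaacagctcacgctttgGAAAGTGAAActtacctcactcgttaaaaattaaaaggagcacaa
Gbp2 (chr3:142620569-142620648, plus): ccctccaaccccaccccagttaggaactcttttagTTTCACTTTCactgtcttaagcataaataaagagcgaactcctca
H2-T22 (chr17:36042889-36042968, minus): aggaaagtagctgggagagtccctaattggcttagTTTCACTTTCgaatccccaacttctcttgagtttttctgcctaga
Tmem140 (chr6:34863048-34863127, plus): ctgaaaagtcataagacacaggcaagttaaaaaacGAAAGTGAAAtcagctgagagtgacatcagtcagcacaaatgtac
Irf1 (chr11:53769889-53769968, plus): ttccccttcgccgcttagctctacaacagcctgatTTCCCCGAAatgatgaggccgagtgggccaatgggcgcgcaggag
Icam1 (chr9:21015860-21015939, plus): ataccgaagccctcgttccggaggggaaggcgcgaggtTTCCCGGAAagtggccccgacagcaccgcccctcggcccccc
The response element was found in the 250 bases upstream of 8 of 143 genes opposite lower genes (5.59%) and of 1 of 108 genes opposite higher genes (0.926%). It was found in 2.7% of the genes opposite all tested genes and in 3.46% of all promoters. Among the genes opposite all tested genes the gamma-activated site was found in 6.93%, and among all promoters in 8.13%. In the sets opposite lower and higher genes it was found in 11.2% and 5.56%. The AP-1 site, searched as TGANTCA, was found in 8.39% and 6.48% of them, in 5.2% of the genes opposite all tested genes and in 7.82% of all promoters. The NF-kB site, searched as a pattern of 10 bases, was found in 0 of 143 and 0 of 108. It was found in 0.422% of the genes opposite all tested genes and in 0.414% of all promoters. A pattern this rare is seldom met in sets of this size. The counts of 0 therefore do not show that these promoters lack NF-kB sites. The motifs can overlap each other, and a match is a description of the letters only.

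Stress-response genes gave the next group. Of the ER stress list, 7 genes opposite its exons were tested, with 3 lower and 1 higher, beside 4.7% and 5.81% of all tested genes. On their own strand, 2 of 8 tested were lower. Dcaf1, a gene of the ubiquitin system, lies opposite Manf (146 bp), which encodes a secreted ER stress protein, and also opposite Rbm15b (75 bp). Dcaf1 had 134, 209, 145 and 113 counts against 48 and 49 (log2 fold change -1.55 ± 0.18, adjusted p = 2.29e-09). 4930524O07Rik, whose longest overlap is 1082 bp with Dock3 and which also overlaps Manf, fell by 0.54 ± 0.13 on the log2 scale. Manf itself had 80, 60, 63 and 68 counts against 89 and 54 and was not called. The third was 1810014B01Rik opposite Hsp90b1, with 9217, 9110, 9309 and 7356 counts against 6225 and 5560. Here both strands moved the same way, as Hsp90b1, an ER chaperone gene, was also lower, with 94, 128, 86 and 80 counts against 41 and 54. Hspa5, the main ER chaperone gene, was lower on its own strand (108, 204, 112 and 106 against 69 and 72, log2 fold change -0.82 ± 0.18, adjusted p = 0.00105). The higher gene was Il4i1, whose longest overlap is with Tbc1d17 and which also overlaps Atf5, a stress-induced transcription factor gene, at 0.79 ± 0.15.

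Cytosolic chaperone genes were taken next. Gm20481, opposite the inducible heat shock gene Hspa1a, had 7108, 6982, 6741 and 6543 counts in litter 1 and 4281 and 2501 in litter 2 (log2 fold change -0.99 ± 0.15, adjusted p = 1.92e-06). Smu1, a splicing factor gene, lies opposite Dnaja1, a co-chaperone gene, and had 64, 58, 42 and 39 counts against 16 and 21. These were the 2 tested genes opposite the heat shock list, and both were lower, beside 4.7% of all tested genes. On their own strand, 2 of 11 tested genes of the list were lower, Hsp90ab1 and Hsp90aa1, which encode the HSP90 chaperones of the cytosol, with log2 fold changes of -1.07 and -0.74. The median of the 11 genes was -0.63, and without KO2938 it was -0.36 with 1 gene lower. Of the immediate early genes, 2 of 4 tested opposite genes and 1 of 9 on their own strand were lower, beside 4.7% of all tested genes. Junos opposite Jun (2073, 2180, 1950 and 2111 against 1499 and 707), Gm11175 opposite Jund (7568, 6217, 6549 and 4934 against 4631 and 3343) and Jund itself (55, 52, 46 and 35 against 33 and 17) were these 3. Without KO2938 the count on their own strand was 0. Jun and Jund encode subunits of the AP-1 transcription factor. Of the inflammatory list, 3 of 4 tested opposite genes were lower, beside 4.7% of all tested genes. Besides Art3 and Gm47079 this was Spidr opposite Cebpd, an acute-phase transcription factor gene, at a 2.83-fold lower level (adjusted p = 0.00294). Tmem189 opposite Cebpb was not called (-0.22 on the log2 scale). On their own strand 0 of 2 tested genes were called, with Cebpd at 0.03 and Cebpb at 0.53.
The heat shock element, searched as GAANNTTC, was found in the promoters of 10 genes opposite lower genes. The 3 of this paragraph are shown, and the others include Dtx3l, Sp140 and Tap1 of the longer interferon list.
Hspa1a (chr17:34972216-34972295, minus): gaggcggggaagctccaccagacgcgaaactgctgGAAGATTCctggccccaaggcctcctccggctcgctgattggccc
Dnaja1 (chr4:40722309-40722388, plus): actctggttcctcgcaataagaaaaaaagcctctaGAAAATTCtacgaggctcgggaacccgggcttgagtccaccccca
Jun (chr4:95052306-95052385, minus): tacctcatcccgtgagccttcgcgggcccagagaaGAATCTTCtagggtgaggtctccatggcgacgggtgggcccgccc
It was found for 6.99% of the genes opposite lower genes, for 3.7% of those opposite higher genes and for 7.73% of all promoters. The share was 6.04% for the genes opposite all tested genes.

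**Figure D3:**
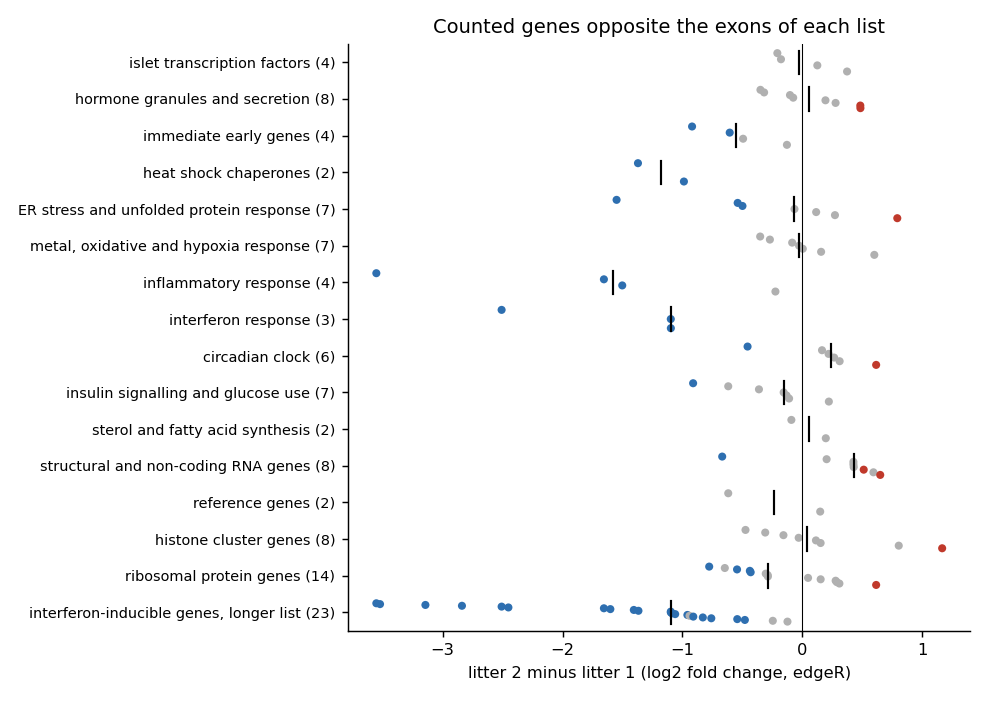
Log2 fold change of litter 2 over litter 1 for each tested gene that lies opposite exons of the listed genes, 1 row per list with the number tested, in blue where called lower, red where called higher and grey where not called. Black bars are the medians, which lie at -1.18 for heat shock chaperones, -1.58 for the inflammatory response and -1.10 for both interferon rows, of which the bottom one was added after the values were seen. The genes of the upper interferon row, and Art3 and Gm47079 of the inflammatory row, stand in the bottom row as well.

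Of the other genes with the smallest p-values among those lower in litter 2, M5C1000I18Rik lies opposite C2cd4b, a gene of a nuclear protein expressed in beta cells. It had 530, 499, 477 and 519 counts against 308 and 177, and C2cd4b itself had 3 to 14. Gm26825 lies opposite the pseudogene Gm15459 and had 757, 564, 839 and 634 counts against 285 and 209. 4930512H18Rik lies opposite Gm45418 within the span of Palld, a gene of the actin cytoskeleton, and had 72, 44, 72 and 40 against 9 and 11. The litters did not overlap for any of the 3, as the choice of these genes requires. Opposite Irs2, which encodes an adaptor of the insulin receptor, 9530052E02Rik had 169, 180, 170 and 165 against 113 and 63 (log2 fold change -0.91 ± 0.16, adjusted p = 2.89e-05).

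Hormone genes have no gene of the table opposite their exons. Ins2 had 157, 205, 165 and 128 counts against 158 and 96, and Ins1 had 63, 77, 63 and 59 against 64 and 45. Neither was called, with log2 fold changes of -0.31 ± 0.15 (adjusted p = 0.171) and -0.21 ± 0.19 (adjusted p = 0.551). Iapp, the islet amyloid gene, stood at -0.36 ± 0.21. Gcg, the glucagon gene, was lower, with 43, 114, 43 and 61 counts against 34 and 23 (-1.13 ± 0.26, adjusted p = 0.00159). WT2777 was the highest of these libraries, and the litters did not overlap in CPM. Sst, the somatostatin gene, had at most 12 counts and was not tested. Scg2, which encodes a secretory granule protein, fell by 0.96 ± 0.16 on the log2 scale. Of 18 tested genes of the granule and secretion list it was 1 of 2 called, the other being Abcc8, which was higher, beside 10.5% of all tested genes called.

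Abcc8 encodes the sulfonylurea receptor, the regulatory subunit of the beta cell potassium channel that couples glucose to insulin release. Its counts were 260, 276, 206 and 207 in litter 1 and 648 and 400 in litter 2, a 2.27-fold higher level (log2 fold change 1.19 ± 0.13, adjusted p = 5.66e-11). Of 11 tested beta cell markers it was the only 1 called, beside 10.5% of all tested genes. The median log2 fold change of the 11 was -0.28, and the others ranged from -0.71 for Nkx6-1 to 0.36 for Kcnj11. Gm45486 lies within Abcc8 on the opposite strand without sharing exons, and it was higher too, with 459, 533, 438 and 315 counts against 1098 and 732 (1.13 ± 0.12, adjusted p = 1.08e-10). Both strands of the locus were thus higher in both litter 2 libraries.

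This position, inside a gene on the opposite strand but outside its exons, was common among the higher genes. Of 1115 tested genes there, 122 (10.9%) were higher and 18 (1.61%) lower, with a median log2 fold change of 0.25. Of 3593 genes with opposite exons, 152 (4.23%) were higher and 209 (5.82%) lower, with a median of -0.07. Of 1329 genes with no opposite gene, 77 were higher and 57 lower, but 28 and 39 without KO2938, 67 and 71 with upper quartile scaling and 15 and 53 with library sizes alone. In the main fit this last class, at 5.79% higher and 4.29% lower, stood near the 5.81% and 4.7% of all tested genes. The classes were set after the values were seen and are given as counts. The median of the first class was 0.22 among WT and 0.25 among flox/flox islets, which share no library. Its counts were 75 higher and 21 lower without KO2938, 45 and 8 without WT2931, and 30 and 4 with DESeq2. With library sizes alone they were 26 and 19. Among genes annotated as antisense, 42 of 254 (16.5%) were higher and 4 (1.57%) lower inside an opposite gene without sharing exons. Where they shared exons, 37 of 829 (4.46%) were higher and 56 (6.76%) lower. The median GC content was 47.8% for the first class and 50.6% for genes with opposite exons, and the part of GC content in the result was not tested beyond a correction that gave 127 and 18.

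**Figure D4:**
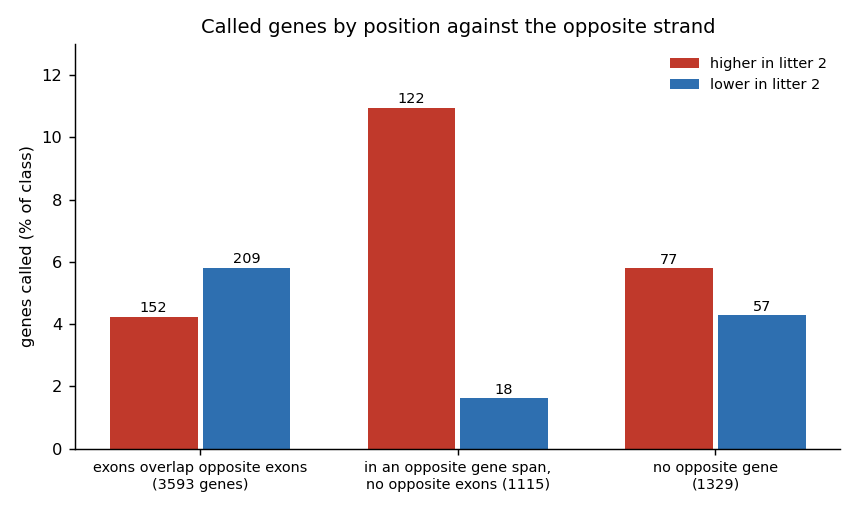
Share of tested genes called higher (red) or lower (blue) in litter 2, in percent of each class, with the number of genes above each bar. Classes are genes whose exons overlap exons on the opposite strand, genes inside an opposite gene without such overlap, and genes with no opposite gene; the middle class has 122 higher and 18 lower genes.

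The candidate sources in this class would be unspliced transcripts of the gene around them, which was not tested. Kcnmb1, a potassium channel subunit gene, lies inside Kcnip1 and had 489, 507, 474 and 408 counts against 1103 and 793 (log2 fold change 1.07 ± 0.12, adjusted p = 5.48e-10). Gm4651 and Minpp1-ps lie inside Mical3, a gene involved in exocytic vesicle fusion, and were higher by 1.63 and 1.31 on the log2 scale. Gm43915, which shares exons with Mical3, was higher by 0.85. Pitpnm2os2, Pitpnm2os1 and Gm42425 lie inside Pitpnm2, a phosphatidylinositol transfer gene, and were higher by 1.26, 1.13 and 1.31. Lrfn4 lies inside Pcx, which encodes the pyruvate carboxylase of beta cell metabolism, and had 70, 70, 73 and 54 counts against 156 and 124. The counts of Kcnip1, Mical3, Pitpnm2 and Pcx themselves were low, at 0 to 8, 1 to 9, 21 to 44 and 13 to 25. Other loci, named after their values were seen, were Cacnb2, a calcium channel subunit gene, with 4 genes between its exons and 2 opposite them that were higher. Gm10421 and Gm5441 inside Ptprn2, a granule membrane protein gene, rose by 0.84 and 0.51, 6430503K07Rik inside Nkx2-2, an islet transcription factor gene, by 0.76, and Gm11789 inside Gcgr, the glucagon receptor gene, by 1.81. Nkx2-2os, opposite exons of Nkx2-2, had 471, 430, 432 and 337 counts against 484 and 386 and was not called (0.12 on the log2 scale).

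The higher genes Gm15247, G530011O06Rik and Gm15726 lie close to each other on chromosome X, opposite exons of Mid1, a ubiquitin ligase gene. Gm15247 (169985801 to 169986939) had 2, 3, 0 and 1 counts in litter 1 and 36 and 36 in litter 2. G530011O06Rik had 4, 5, 6 and 3 against 24 and 57, and Gm15726 had 17, 17, 12 and 9 against 41 and 72. The differences were 4.54 ± 0.47, 3.19 ± 0.37 and 2.09 ± 0.27 on the log2 scale. In each case all 4 litter 1 mice lay below both litter 2 mice, as the choice of these genes requires. The counts of Mid1 itself were 0 to 5. As the 3 genes face the same transcript, they are not independent observations of the locus.

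Zfp710, a zinc finger gene, had the smallest p-value among the higher genes. Its counts were 432, 485, 432 and 336 in litter 1 and 1410 and 941 in litter 2, a 2.89-fold higher level (log2 fold change 1.53 ± 0.12, adjusted p = 8.61e-16). It has 97 bp of exon opposite Gm44949 and also surrounds Gm21057 on the other strand. Gm9821, opposite Dgkz, a diacylglycerol kinase gene, had 125, 127, 123 and 108 counts against 324 and 249. Gm43500, opposite Mlxipl, which encodes the glucose-responsive transcription factor ChREBP, had 95, 139, 112 and 107 counts against 303 and 242, a 2.51-fold higher level. The litters did not overlap for either gene, again as their choice requires.

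Gm16183 opposite Cacna1a, a calcium channel gene, and Gm26859 opposite Syt7, a calcium sensor gene of exocytosis, were higher by 0.48 each, 2 of 8 tested in the secretion list. For comparison with this list and those that follow, 5.81% of all tested genes were higher and 4.7% lower. Of 6 tested genes opposite clock genes, Sphk2, opposite Dbp and Rpl18, was higher (0.62 ± 0.13) and 0610040F04Rik, opposite Bhlhe40, lower (-0.46 ± 0.16), and without KO2938 the counts were 2 higher and 0 lower. Sphk2 is also the higher gene of the ribosomal protein list. Genes opposite the nuclear non-coding RNAs Meg3 (Gm26906) and Malat1 (Gm37376) were higher by 0.65 and 0.51, and Ccdc107 opposite Rmrp was lower (-0.67 on the log2 scale). Opposite ribosomal protein genes, 4 of 14 were lower and 1 higher (1 and 1 without KO2938), and on their own strand 0 of 22 were called. Of the other cell types of the pancreas, the ductal markers Muc1 (14, 13, 6 and 4 against 22 and 17) and Krt7 (24, 16, 27 and 14 against 33 and 36) were higher, 2 of 3 tested of 8 listed, and without KO2938 the count was 0. Casp9, opposite the acinar enzyme gene Cela2a, was higher by 0.41 ± 0.14, and of the acinar markers themselves 2 were tested and 0 called. The part of duct or acinar cells in these results was not tested. The lists of islet transcription factors and of metal, oxidative and hypoxia response, sterol synthesis, cell cycle and reference genes had 0 genes called on either strand. Of the histone genes, 1 of 8 tested opposite genes was called (Gm20633, higher, with overlapping litters), and opposite the alpha cell marker Slc7a2 Gm26584 was higher by 0.38. Among the structural non-coding RNAs on their own strand, AY036118 was higher (0.71 ± 0.23, with overlapping litters) and Rpph1 and Rn7s1 were lower, but AY036118 stood at -0.44 without KO2938 and Rn7s1 at 0.10 without WT2931. The delta and PP cell list and the sex-linked list had 1 gene tested each and 0 called, the stromal and nerve lists had 0 tested, and mitochondrial genome genes were not in the table.

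The litter difference was computed apart among the 3 WT and the 3 flox/flox libraries, which are disjoint. The sign was the same for 3960 of 6037 genes (65.6%), and across genes Pearson's r was 0.44 and Spearman's rho 0.42. Genes are not independent replicates, and these values are a description. Of 181 genes at least 1 log2 unit higher in litter 2 among WT islets, 163 (90.1%) were also higher among flox/flox islets, with a median difference of 0.69. Of 318 genes at least 1 log2 unit lower among WT islets, 243 (76.4%) were also lower among flox/flox islets, with a median of -0.49. A difference of the litter effect between genotypes passed the test for 11 genes (0.182%).

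**Figure D5:**
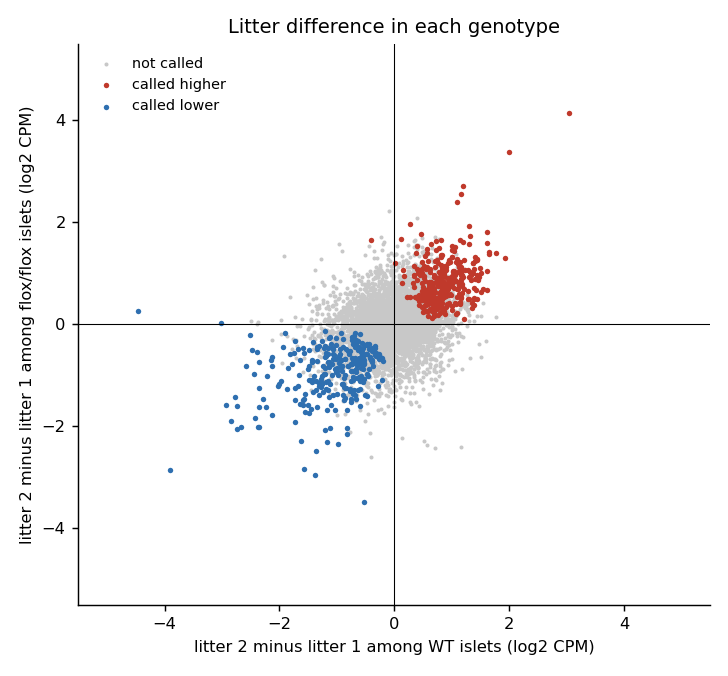
Each point is a tested gene, with the litter difference (litter 2 minus litter 1, log2 CPM) among the 3 WT libraries on the horizontal axis and among the 3 flox/flox libraries on the vertical axis. Called genes, red for higher and blue for lower, lie mostly to the upper right and lower left. This placement follows in part from the calling, which used all 6 libraries. Of all tested genes, 65.6% have the same sign in both genotypes.

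The pairing of strands was followed over all loci. Of 1127 pairs of opposite genes with both genes tested, 181 had exactly 1 gene called and 18 had both called, 15 of these in the same direction. Of all tested genes 10.5% were called, so pairs with 1 or both genes called arise even where the strands are unrelated. Whether the strands were linked was not tested. Opposite genes met by 2 or more called genes numbered 10, and at each of them the called genes moved one way. They were Mid1, Cacnb2, Acin1 and Plcg1 for higher genes, and Selp, Manf, Tap2, Cish, Tgm2 and Adamts9 for lower genes. How many opposite genes were met by 2 or more tested genes was not counted, so the 10 have no share beside them. Cish encodes a suppressor of cytokine signalling and Tgm2 a transglutaminase. Called genes that face the same transcript are not independent observations.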

How the data were processed

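RNA of islets from 6 mice, 1 library each, was sequenced, and the libraries were grouped by the littermate group in the sample labels. Per the study's methods, the authors depleted ribosomal RNA and built strand-specific libraries, mapped single reads of 125 bp to mm10 with HISAT2 2.1.0 and counted reads per Ensembl gene with HTSeq. The deposited values are raw counts per gene, as whole numbers without normalization. A second deposited table holds fold changes and p-values of the authors' own genotype comparison with DESeq2 and was not used.

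Of 15286 genes, 15258 were matched to GENCODE vM21, an annotation of the same build (GRCm38) later than that of the authors, and pyranges 0.1.4 was used to find opposite-strand overlaps. A minimum overlap of 1 bp of exon was used. Litter was tested with edgeR 4.0.16 in R 4.3.3 (quasi-likelihood F test, genotype and litter as terms, TMM normalization, default filter with a minimum count of 10 by litter, Benjamini-Hochberg adjustment), which left 3 residual degrees of freedom. The filter kept 6037 genes with 96.1% of the counts. Standard errors are those implied by the F statistic. The interaction of litter and genotype was fitted in the same way, with 2 residual degrees of freedom. The 2 libraries of litter 2 and the 4 of litter 1 are different mice, so the spread is that between mice. The script was tested on simulated data. Within-genotype differences are of log2 CPM, computed at a prior count of 2. 1 count corresponds to 1.28 to 1.75 CPM.

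The genes named in each direction are the 12 with the smallest p-values whose CPM did not overlap between litters. Named besides are their opposite genes, called genes of the lists and called genes opposite them, AY036118, and the hormone genes. Others, including the genes of the longer interferon list and those inside Cacnb2, Ptprn2, Nkx2-2 and Gcgr, were named after their values were seen. The members and lists were chosen with earlier results of these data known. Motifs were searched in the 250 bases upstream of each gene start in RefSeq sequences. Alternatives were RLE, upper quartile and library size scaling, removal of abundant genes, other count filters, DESeq2 1.42.0, limma-voom (limma 3.58.1), robust estimation, other model terms, a looser threshold of 0.1 on the adjusted p-value, and the omission of single libraries. A correction for GC content was added after the data were seen. A830019P07Rik was not analysed here, and 2 of the lower genes that the rule names are not reported here.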

Additional observations from a re-analysis of the deposited data

Results flagged for a closer look

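In litter 1, 3 of the 24 named genes had 1 library far from the other 3, by the gap to the nearest library as a share of the range in CPM. The share was 0.943 for Gm47079, with KO2776 the lowest library, 0.862 for Slfn5os, with KO2775 the highest, and 0.847 for Abcc8, with KO2775 the lowest. Chance gives such a gap in about 1 of 20 groups of 4.

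The litter difference differed between genotypes for 11 genes in edgeR's test of the interaction, given here as flox/flox minus WT on the log2 scale. In KO2938 AY036118 took 41.0% of the counts. AY036118 differed by 2.05 and its opposite gene Gm42418 by 2.43 (adjusted p = 9.53e-18), with 6702 to 21071 counts in the 4 libraries of litter 1, 7806 in WT2931 and 27758 in KO2938. Lars2, a mitochondrial leucyl-tRNA synthetase gene, differed by 2.28, with 433 to 1592 counts in litter 1, 574 in WT2931 and 1654 in KO2938. By counts, AY036118, Gm42418 and Lars2 ranked the 6 libraries in the same order. AY036118 lies in a ribosomal RNA repeat, and the part of ribosomal RNA in the counts of Lars2 was not tested. In each of the 3 genes, KO2776 had more than KO2775 and WT2777 more than WT2772 as well, so that the level also varied among mice of 1 litter and genotype. Rn7s1, a signal recognition particle RNA gene, differed by 8.76, a value that depends on the prior count because WT2931 had 0 counts.

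The other 7 genes were Gm26617 (-2.32, with 896 counts in WT2931 and 262 in KO2938, but 771 in KO2775), Cecr2 (1.65), Pex5l (-1.19), Zc3h14 (1.19), Psip1 (1.15), Junos (-0.933) and Gm15441 (-0.907). Junos, opposite Jun, was the only 1 of these 7 also called for litter, and it was lower in litter 2 in both genotypes, by 0.48 among WT and 1.40 among flox/flox islets (-0.48 and -1.40 on the log2 scale). With 1 library per genotype in litter 2, each of these differences rests on a single mouse of litter 2 on either side.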

How the results depend on the processing

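Each library of litter 2 carries much of the comparison, since a single mouse then stands for the litter and is assumed to vary like the others. Leaving out 1 library in turn gave 254 to 523 genes, lowest without WT2931 (254) and then without KO2938 (423). Library size alone gave 276 genes (55 higher) and DESeq2 184 (89 higher), of which 264 and 183 were among the 635. Upper quartile scaling gave 298 higher and 348 lower genes. The other settings gave 545 to 719 genes at the same threshold, and 947 passed an adjusted p-value under 0.1. With the biological replicate number as a replicate block the count was 719. The numbers name different mice in the 2 litters and pair none of them. The interaction gave 4 genes with at least 10 counts in every library and 0 with DESeq2, whose unadjusted p-value was under 0.05 for 31 genes (411 in edgeR). The share of same-sign genes stayed between 65.6 and 66.7%. The share of lower genes with opposite exons was 73.6%, and 66.2% when at least 100 bp had to overlap. For the 24 genes named by the smallest p-values, all 472 values under alternatives kept their direction and their call. Their choice by p-value in the main fit of the same libraries favours this. For 40 others, 659 of 795 did, 134 lost the call and 2 turned, AY036118 to -0.44 without KO2938 (1.61 without WT2931) and Rn7s1 to 0.10 without WT2931 (-8.71 without KO2938). Over the original lists with at least 3 tested opposite genes, the count of lower genes opposite was 18, and 14 without KO2938.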

Other observations

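A few lower genes with no gene on the opposite strand were noticed after their values were seen. Tmprss2, a serine protease gene of secretory epithelia, had 62, 51, 52 and 31 counts in litter 1 (WT2772, WT2777, KO2775 and KO2776) and 10 and 11 in litter 2 (WT2931 and KO2938), with a log2 fold change of -2.14 ± 0.31. Cgn, which encodes the tight junction protein cingulin, had 35, 46, 39 and 48 against 12 and 11. Gpx3, a secreted glutathione peroxidase gene, had 66, 44, 53 and 39 against 20 and 18. Oas1h, of the oligoadenylate synthetase family, had 27, 26, 17 and 9 against 3 and 5. The litters did not overlap for these genes.

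Among higher genes with no opposite gene were Muc6, a gel-forming mucin gene (64, 59, 60 and 45 against 133 and 87), Dgat1, which encodes an enzyme of triglyceride synthesis (64, 49, 35 and 38 against 113 and 67), and Ykt6, a gene of vesicle fusion (14, 25, 14 and 9 against 41 and 33). Their log2 fold changes were 1.00 ± 0.17, 1.00 ± 0.19 and 1.33 ± 0.29.

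Interferon-linked loci also appeared between exons on the opposite strand. Gm43068 inside Oas2 had 25, 15, 16 and 6 counts against 2 and 1, and Gm20234 inside Slfn2 had 20, 19, 13 and 8 against 1 and 2, with log2 fold changes of -3.21 ± 0.66 and -3.15 ± 0.65. These 2 are among the 18 lower genes of a class in which 122 were higher.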
